A study of Mus musculus with 6 samples.

Results

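A set of genes that marks the path from macrophage to osteoclast was followed in RAW264.7 cells treated with SKI-II. The genes are Nfatc1, Tnfrsf11a, Oscar, Calcr, Dcstamp, Ocstamp, Atp6v0d2, Ctsk, Acp5 and Mmp9, and they are 10 of the 49315 genes in the deposited count table. They were chosen by symbol for their known roles, at a time when earlier results of these data were known. RAW264.7 is a macrophage-like mouse cell line that can serve as an osteoclast precursor. The compound SKI-II inhibits sphingosine kinases. Wild-type cells received 4 μg/mL SKI-II or the DMSO vehicle for 24 h, with 3 RNA-seq libraries in each group, and the sources used here name no RANKL or other osteoclast-inducing agent in either group. Nothing in the labels says that the libraries came from separate cultures, so the p-values measure only the spread between these libraries, which may be technical.

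Osteoclasts are the bone-resorbing cells that form when precursors of the monocyte and macrophage lineage respond to M-CSF and RANKL. RANKL binds the receptor RANK, encoded by Tnfrsf11a, and through TRAF adaptors, NF-κB, AP-1 and calcium signals induces NFATc1, the master transcription factor of the lineage. NFATc1, with PU.1 and MITF, drives genes for cell fusion, for acid secretion by the V-ATPase and for the proteases that degrade bone matrix. RAW264.7 cells can form osteoclast-like cells when given RANKL.

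The values are read counts per gene scaled to a common library size, called normalized read counts below. The libraries held 12495957 to 20050677 counts, and genes with enough reads, 12274 in all, entered the quasi-likelihood test of edgeR with Benjamini-Hochberg adjustment. The summed normalized count of 10 macrophage markers was 121118 to 186372 in the DMSO libraries and 73022 to 108096 in the SKI-II libraries, with Cd163 at 0 in every library. Lyz2, the lysozyme gene, made up most of this sum in DMSO, with 88328 to 150574 in DMSO and 23620 to 61283 in SKI-II, and the other 9 markers summed to 30567 to 35799 in DMSO and 42851 to 49402 in SKI-II, the opposite direction. Of the 9 markers tested, 4 fell (Adgre1, Lyz2, Itgam and Mrc1), 2 rose (Cd14 and Fcgr1) and 3 did not pass the test (Ptprc, Cd68 and Mertk). The markers thus moved with the treatment in both directions, and their part in the results was not tested. Markers of other cells were few. All 4 epithelial markers, 4 of 8 B and T cell markers, 2 of 6 dendritic cell markers (Flt3 and Cd209a) and the neutrophil marker Ly6g were at 0 throughout. Summed normalized counts lay between 1.26 and 11.2 for the B and T cell list and between 30.2 and 112 for the neutrophil list. The dendritic cell list summed to 295 to 306 in DMSO and 108 to 164 in SKI-II, where both of its tested genes, Itgax and Zbtb46, fell, and its part in the results was not tested. The osteoblast and stromal list summed to 447 to 593 in DMSO and 449 to 667 in SKI-II, nearly all of it Runx2.

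Sequences just before the transcription start were available from RefSeq (GRCm38.p6) for 5 of the 10 genes, Tnfrsf11a, Oscar, Calcr, Ctsk and Acp5, in 8 start windows. Among the transcripts that fell with SKI-II, as described further on, the windows of Ctsk and of 1 Acp5 start are shown because they held matches to the motifs searched. Tnfrsf11a, which also fell, and the other Acp5 starts held none and are not shown. They are written 5′ to 3′ in the direction of the gene, with positions counted back from -1 at the base before the start, and capitals mark matches on either strand to the short motifs given after them. The Ctsk window is chr3:95498960-95499209 on the plus strand and covers positions -250 to -1. The Acp5 window is that of the most downstream of 3 starts, chr9:22130609-22130848 on the minus strand, and covers positions -250 to -11, the bases that no Acp5 exon of GENCODE M21 covers.
Ctsk: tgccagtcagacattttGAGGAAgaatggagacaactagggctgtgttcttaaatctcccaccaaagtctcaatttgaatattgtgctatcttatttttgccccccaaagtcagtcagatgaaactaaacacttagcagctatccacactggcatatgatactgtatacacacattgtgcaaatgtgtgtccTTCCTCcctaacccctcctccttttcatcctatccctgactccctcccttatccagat
Acp5: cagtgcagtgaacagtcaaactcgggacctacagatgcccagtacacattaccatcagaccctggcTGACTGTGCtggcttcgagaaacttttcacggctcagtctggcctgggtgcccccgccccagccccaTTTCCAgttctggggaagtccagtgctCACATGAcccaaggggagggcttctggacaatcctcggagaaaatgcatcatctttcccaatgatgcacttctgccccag
The Ctsk window held the PU.1-like core GAGGAA at -233 and, as its reverse complement, at -58. The Acp5 window held the reverse complement of the MITF and TFE motif TCATGTG at -90, that of the NFAT-like core TGGAAA at -117, and the antioxidant response core TGACNNNGC at -184. Among all 32851 RefSeq windows of this length, 23.3% held GAGGAA, 18.6% held TGGAAA, 10.2% held TGACNNNGC and 3.25% held TCATGTG. No match to the AP-1 motif TGANTCA (6.75% of all windows), whose letters can overlap TGACNNNGC, or to the E-box CACGTG (6.02%) lay in any of the 8 windows. Oscar held TGGAAA at -249 and -82 and GAGGAA at -237, and the windows of Calcr held none of the 6 motifs. These matches describe letters in a window, and binding was not measured.

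Of the 10 genes, 7 had enough reads for the test, and each of the 7 was above the filter in all 6 libraries. With SKI-II, 5 of the 7 fell at an adjusted p below 0.05, namely Nfatc1, Tnfrsf11a, Atp6v0d2, Ctsk and Acp5, and none rose. Across all tested genes, 19.7% fell and 18.4% rose by the same call. Dcstamp and Mmp9 did not pass the test, and Oscar, Ocstamp and Calcr had too few reads or none. The 5 genes that fell are also those whose SKI-II libraries all lay below every DMSO library, a separation seen for 25.5% of all tested genes in that direction. Log2 fold changes were below -1 for 2 of the 5, Atp6v0d2 and Ctsk, against 7.44% of all tested genes called lower with a log2 fold change below -1. The median log2 fold change was -0.81 over the 7 tested genes and 0.0038 over all tested genes. In bulk RNA, fewer cells that carry a transcript and less of it per cell cannot be told apart.

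**Figure D1:**
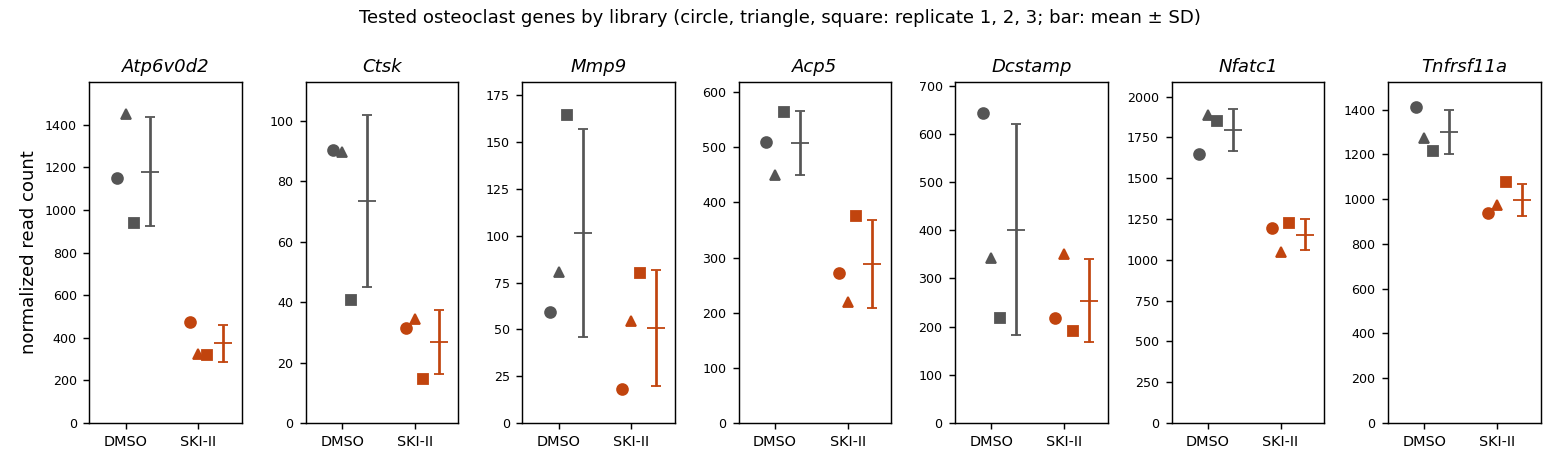
Normalized read counts (y axis, linear, from 0, a scale for each gene) of the 7 tested genes in the DMSO and SKI-II groups on the x axis, with symbols for the 3 libraries of each group and bars for the mean and SD. The groups are apart for Atp6v0d2, Ctsk, Acp5, Nfatc1 and Tnfrsf11a and overlap for Mmp9 and Dcstamp.

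Nfatc1 (ENSMUSG00000033016, chromosome 18) encodes the transcription factor that calcineurin sends to the nucleus and that switches on the osteoclast program. Its normalized count was 1645, 1886 and 1853 in DMSO replicates 1, 2 and 3 and 1192, 1048 and 1224 in the SKI-II replicates. The lowest DMSO library was above the highest SKI-II library, and both groups were tight, with 1795 ± 131 (SD, n = 3) in DMSO and 1154 ± 93.7 in SKI-II. Nfatc1 was 1.55-fold lower with SKI-II, a log2 fold change of -0.64 with a standard error of 0.12 and a 95% interval of -0.91 to -0.37 (edgeR quasi-likelihood test, Benjamini-Hochberg adjusted p = 0.00277). The call held in each of the 14 alternative analyses, with log2 fold changes of -0.71 to -0.57 and adjusted p-values of 0.000138 to 0.02.

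The set holds 3 genes for cell surface receptors. Tnfrsf11a (ENSMUSG00000026321, chromosome 1), the receptor RANK, had 1411, 1271 and 1217 normalized counts in DMSO against 939, 975 and 1075 in SKI-II. The groups did not overlap, but the gap between the lowest DMSO and the highest SKI-II library, both of them replicate 3, was small. The fall was the smallest of the 5, 1.30-fold, with a log2 fold change of -0.38, a standard error of 0.12 and an interval of -0.65 to -0.11 (edgeR quasi-likelihood test, Benjamini-Hochberg adjusted p = 0.0312). Tnfrsf11a was no longer called without replicate 1 or 2 of DMSO (edgeR adjusted p = 0.0814 and 0.0867), without replicate 1 or 2 of SKI-II (0.0751 and 0.103), and without the filter on low counts (0.0682), while the log2 fold change stayed between -0.49 and -0.34 in all alternatives.

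Oscar (ENSMUSG00000054594, chromosome 7), a collagen receptor that signals through the FcRγ chain and costimulates RANK, was close to the limit of detection. It had 5, 8 and 3 raw counts in DMSO against 4, 5 and 7 in SKI-II, so that each group held 16 counts in all. The ratio of SKI-II to DMSO, corrected for library size, was 0.893 with an exact 95% (Clopper-Pearson) counting interval of 0.418 to 1.91, a span on both sides of no change, and it lay between 0.707 and 1.29 with 1 library left out. The groups overlapped (exact permutation test, two-sided, p = 0.8, where 3 against 3 libraries can go no lower than 0.1). Calcr (ENSMUSG00000023964, chromosome 6), the calcitonin receptor and a marker of mature osteoclasts, had no read in any of the 6 libraries. A count of 0 allows up to 3 counts over a group, which is 0.0659 CPM (the count scaled to the library total) in DMSO and 0.0588 CPM in SKI-II. These limits and intervals cover counting error only.

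Dcstamp and Ocstamp encode the multipass membrane proteins that osteoclast precursors need to fuse. Dcstamp (ENSMUSG00000022303, chromosome 15) had 643, 342 and 217 normalized counts in DMSO against 218, 351 and 190 in SKI-II. The groups overlapped, and DMSO replicate 1 alone lay above every SKI-II library. The log2 fold change of -0.67 had a standard error of 0.37 and an interval of -1.48 to 0.15 (edgeR quasi-likelihood test, Benjamini-Hochberg adjusted p = 0.181). The value rested on single libraries, being -0.16 without DMSO replicate 1 (edgeR adjusted p = 0.711) and -0.97 without DMSO replicate 3 (edgeR adjusted p = 0.0311), and Dcstamp was also called without the filter on low counts (0.00457). Ocstamp (ENSMUSG00000027670, chromosome 2) was much scarcer, with 19, 15 and 2 raw counts in DMSO against 4, 7 and 1 in SKI-II. Replicate 3 was the lowest library in both groups, and DMSO replicate 3 lay below SKI-II replicates 1 and 2. Summed counts of 36 and 12 gave a ratio of 0.298 with a counting interval of 0.141 to 0.586, which leaves out the spread between libraries, and the ratio was 0.185 without SKI-II replicate 2 and 0.445 without SKI-II replicate 3, its lowest and highest values with 1 library left out. The exact permutation test, two-sided, gave p = 0.3. Ocstamp entered the test under some alternatives. It was called when DMSO replicate 3 was left out (log2 fold change -2.25, edgeR adjusted p = 0.0222), and not by DESeq2 (-1.73, adjusted p = 0.188), without the filter (-1.71, edgeR adjusted p = 0.0526) or without SKI-II replicate 1, 2 or 3 (-1.82, -2.35 and -1.18, edgeR adjusted p = 0.235, 0.132 and 0.299).

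Atp6v0d2 (ENSMUSG00000028238, chromosome 4) showed the largest fall among the tested genes of the set. It encodes the d2 subunit of the membrane sector of the V-ATPase, the proton pump that acidifies the space under a resorbing osteoclast, and it also takes part in cell fusion. Its normalized count was 1148, 1451 and 941 in DMSO and 472, 325 and 321 in SKI-II. Every SKI-II library lay far below the lowest DMSO library, with group means of 1180 ± 256 and 373 ± 86.1 (SD, n = 3). Atp6v0d2 was 3.17-fold lower with SKI-II, a log2 fold change of -1.66 with a standard error of 0.20 and an interval of -2.11 to -1.22 (edgeR quasi-likelihood test, Benjamini-Hochberg adjusted p = 0.000234). In the 14 alternatives the log2 fold change lay between -1.87 and -1.50, and the call held in each.

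The paralog Atp6v0d1 encodes the d1 subunit, which is used in most cell types. Per length, as normalized CPM divided by the kilobases of exon, Atp6v0d1 stood at 69.6, 75.9 and 91.4 in DMSO and 82.2, 70.3 and 67.3 in SKI-II, and its log2 fold change was -0.11 with a standard error of 0.14 (edgeR quasi-likelihood test, Benjamini-Hochberg adjusted p = 0.578). On the same scale Atp6v0d2 stood at 26.3, 33.3 and 21.6 in DMSO and 10.8, 7.47 and 7.37 in SKI-II. Of the d subunit transcripts together, Atp6v0d2 made up 27.5%, 30.5% and 19.1% with the vehicle and 11.6%, 9.60% and 9.86% with the compound. The share was lower in all 3 SKI-II libraries than in any DMSO library, with a difference of means of -15.3 percentage points (exact permutation test, two-sided, p = 0.1, the smallest value that 3 against 3 can give).

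**Figure D2:**
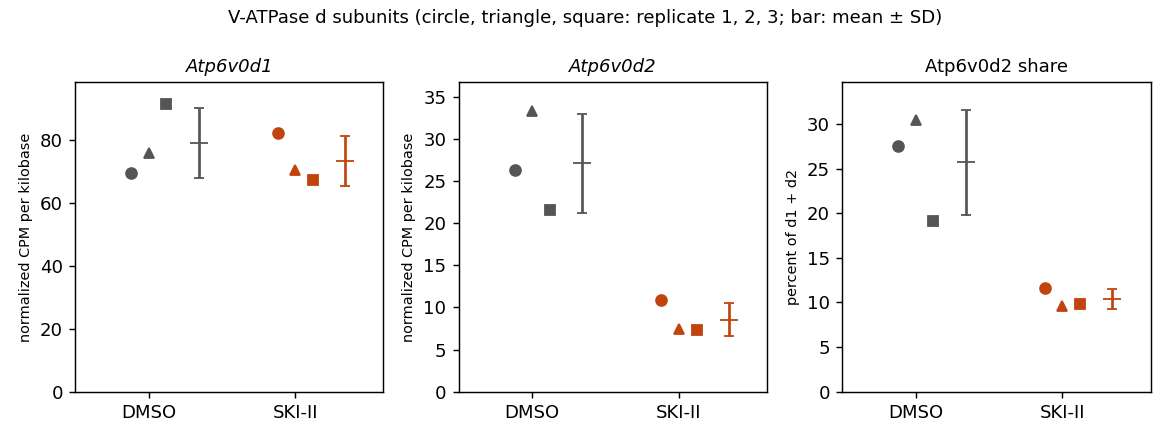
Level of Atp6v0d1 and of Atp6v0d2 (y axes, normalized CPM per kilobase of exon) and Atp6v0d2 as a percent of both (right y axis, percent), by group, with symbols for the 3 libraries of each group and bars for mean and SD. Atp6v0d1 overlaps between the groups, and the Atp6v0d2 share is 19.1% to 30.5% in DMSO and 9.60% to 11.6% in SKI-II.

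Ctsk, Acp5 and Mmp9 encode secreted or lysosomal enzymes of resorption. Ctsk (ENSMUSG00000028111, chromosome 3), cathepsin K, is the protease that cleaves type I collagen in the resorption pit. It was a low transcript here, with 90.3, 89.7 and 40.6 normalized counts in DMSO against 31.3, 34.4 and 14.7 in SKI-II. Replicate 3 was the lowest library in both groups, and DMSO replicate 3 was only slightly above the highest SKI-II library. Ctsk was 2.76-fold lower with SKI-II, a log2 fold change of -1.46 with a standard error of 0.42 and an interval of -2.40 to -0.52 (edgeR quasi-likelihood test, Benjamini-Hochberg adjusted p = 0.0210). The call ended without replicate 1 or 2 of DMSO (edgeR adjusted p = 0.0530 and 0.0764) and without replicate 1 or 3 of SKI-II (edgeR adjusted p = 0.0523 and 0.0531). The log2 fold change lay between -1.76 and -1.15 in all alternatives.

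Acp5 (ENSMUSG00000001348, chromosome 9) encodes tartrate-resistant acid phosphatase, the enzyme behind the TRAP stain for osteoclasts. Its normalized count was 509, 450 and 564 in DMSO against 272, 219 and 376 in SKI-II, with no overlap. Acp5 was 1.76-fold lower, a log2 fold change of -0.81 with a standard error of 0.20 and an interval of -1.27 to -0.36 (edgeR quasi-likelihood test, Benjamini-Hochberg adjusted p = 0.0112). The call held in all 14 alternatives, with adjusted p-values of up to 0.0448. Exons of Acp5 share 137 bases with an antisense transcript, 6530413G14Rik, which had 3 counts over the 6 libraries.

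Mmp9 (ENSMUSG00000017737, chromosome 2) encodes the gelatinase that osteoclasts use in migration and matrix breakdown. Its normalized count was 59.2, 80.9 and 164 in DMSO and 17.9, 54.4 and 79.8 in SKI-II. The groups overlapped, and replicate 3 was the highest library in both. The log2 fold change of -0.98 had a standard error of 0.51 and an interval of -2.12 to 0.15, wide enough to hold 0 and the estimate for Atp6v0d2 (edgeR quasi-likelihood test, Benjamini-Hochberg adjusted p = 0.156). It was -0.44 without DMSO replicate 3, -0.60 without SKI-II replicate 1 and -1.47 without SKI-II replicate 3, and none of these passed the test (edgeR adjusted p = 0.532, 0.355 and 0.0597). Without the filter on low counts Mmp9 was called (edgeR adjusted p = 0.0057).

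**Figure D3:**
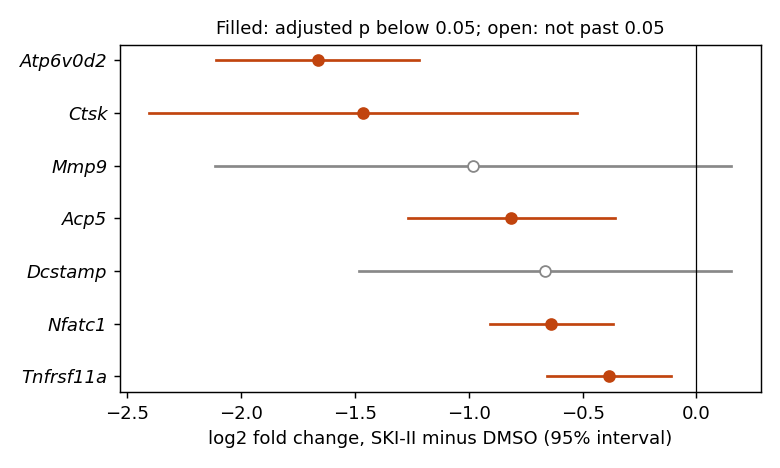
Log2 fold change of SKI-II minus DMSO (x axis) with its 95% interval (line) for the 7 tested genes, ordered from the largest fall, with filled points for genes with an edgeR adjusted p below 0.05. All 7 points lie below 0, and the intervals of Mmp9 and Dcstamp include 0.

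For part of the set, the libraries numbered 3 held the lowest or the highest value of their group. Among the 9 genes with any read, the third library was the lowest of its group in both groups for Dcstamp, Ocstamp, Atp6v0d2 and Ctsk, and the highest in both for Acp5 and Mmp9. These are ranks only, and some differences were slight, as for Atp6v0d2 at 325 and 321 normalized counts in SKI-II replicates 2 and 3. How often all tested genes show such ranks was not computed. With both of these libraries left out, a choice made after seeing the data, 6 genes were called lower, the 5 named before and Ocstamp (log2 fold change -1.70, edgeR adjusted p = 0.0304). The number called lower was 7 without DMSO replicate 3, when Dcstamp and Ocstamp joined the others, and 3 without the first library of either group or the second of DMSO. Over all tested genes, 2413 were called lower with every library, 2388 without both libraries numbered 3, 2239 without DMSO replicate 3, 2368 and 1766 without DMSO replicates 1 and 2, and 2015 without SKI-II replicate 1.

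Levels per length place these transcripts against each other. In DMSO, the normalized CPM per kilobase of exon were highest for Atp6v0d2, at 27.1 ± 5.88 (SD, n = 3), above every library of the next gene. Acp5 at 15.6 ± 1.76, Nfatc1 at 15.0 ± 1.09, Tnfrsf11a at 13.5 ± 1.04 and Dcstamp at 9.38 ± 5.12 followed, and each overlapped its neighbour in this order. Ctsk at 3.03 ± 1.18 and Mmp9 at 1.79 ± 0.978 overlapped each other and lay below Dcstamp in every library. Ocstamp at 0.224 and Oscar at 0.202 also overlapped, at the edge of detection, and Calcr was at 0. Atp6v0d2 exceeded 83.7% of the tested genes in DMSO by this measure, Nfatc1 71.2%, Ctsk 31.0% and Mmp9 22.8%.

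With SKI-II the order of the upper genes closed up. Tnfrsf11a at 10.4 ± 0.732, Nfatc1 at 9.63 ± 0.782, Acp5 at 8.86 ± 2.45, Atp6v0d2 at 8.56 ± 1.97 and Dcstamp at 5.92 ± 2.02 overlapped, each with its neighbour. Ctsk at 1.10 ± 0.437 and Mmp9 at 0.893 ± 0.548 again came next, with Oscar at 0.168 and Ocstamp at 0.0680 last among the genes with reads. Atp6v0d2, the highest in DMSO, came after Tnfrsf11a, Nfatc1 and Acp5 by its mean and exceeded 56.8% of the tested genes. In SKI-II replicate 1 it was still the highest of the set at 10.8, so the order of these overlapping genes is that of the means alone. The order depended on the length used. Dividing by the longest transcript in place of all exon bases put Nfatc1 (23.3) above Acp5 (21.9) in DMSO, both below Atp6v0d2 at 29.0. In SKI-II it moved Nfatc1 from 9.63 to 15.0, the highest mean, ahead of Acp5 and Tnfrsf11a, both at 12.4, and Atp6v0d2 at 9.15.

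**Figure D4:**
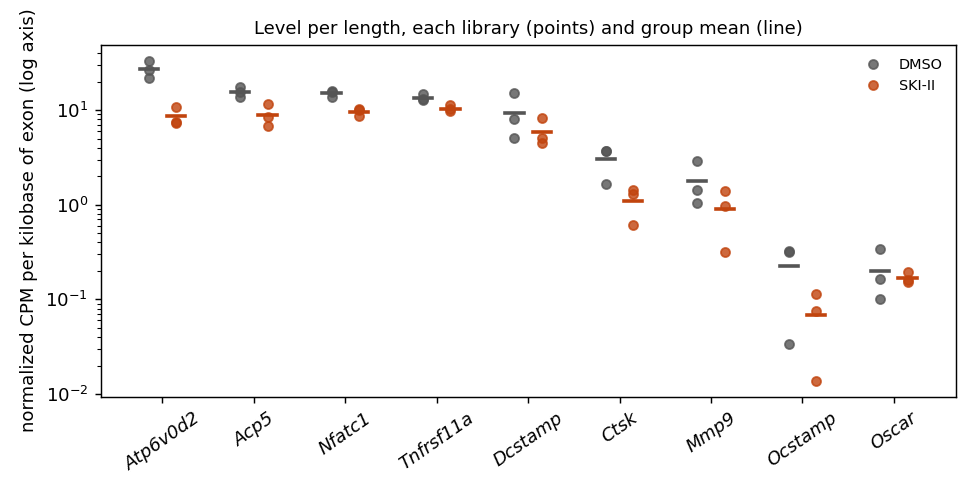
Level per length (y axis, log scale, normalized CPM per kilobase of exon) of the 9 genes with reads, in each library (points) and as group means (lines). The DMSO means run from 27.1 for Atp6v0d2 to 0.202 for Oscar, and Calcr, at 0 in all 6 libraries, is not drawn.

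The other genes of the pathway did not move in 1 direction. Lists of ligands, signalling proteins, transcription factors and effectors, 10 lists with 164 genes, held 142 tested genes, of which 33 (23.2%) rose and 26 (18.3%) fell, with a median log2 fold change of 0.02. These shares, of the 10 lists pooled, are near those of all tested genes, 18.4% and 19.7%. Single lists varied. In the calcium and calcineurin list 8 of 17 genes rose, and among other proteases, secreted and coupling factors 0 of 7 rose and 3 fell. Whether any list departs from all tested genes was not tested, so the counts of the lists below describe their genes only. Without DMSO replicate 2, 16 genes of the pooled lists rose and 14 fell, and without SKI-II replicate 2 these numbers were 26 and 16. Genes said to rise, fall or be higher or lower passed edgeR's quasi-likelihood test at an adjusted p below 0.05, and they are those with the largest changes in each list. Of the 37 genes so named, 19 kept the call in every alternative analysis. Those whose calls ended when a library was left out are named with each list.

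Among 8 tested ligands, receptors and decoys, 2 rose and 1 fell. Csf1, which encodes M-CSF, rose from 121 ± 41.6 to 656 ± 125 normalized counts (log2 fold change 2.44), and Il34, which encodes the other ligand of its receptor, rose from 55.6 ± 10.9 to 166 ± 32.9 (1.56). Tgfbr2 fell by 0.39 on the log2 scale and was not called without DMSO replicate 2 or SKI-II replicate 2 (log2 fold changes -0.42 and -0.36). Csf1r, the receptor of M-CSF, had 16895 normalized counts in DMSO and a log2 fold change of -0.12 with a standard error of 0.14, which did not pass the test. RANKL (Tnfsf11) and its decoy osteoprotegerin (Tnfrsf11b) had no read in any library, as had Sphk1, the sphingosine kinase gene of these lists. Il1r1 had no read in DMSO against raw counts of 31, 22 and 6 with SKI-II.

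Downstream of RANK, 3 of 23 tested adaptors and kinases rose and 3 fell. Traf1 (log2 fold change 0.79) and Src (0.67), the kinase needed for the ruffled border, were higher, and Tab1 (-0.58) and Grb2 (-0.40) were lower. Among 11 ITAM receptors and signalling genes, 1 rose and 3 fell, with Syk at 0.53 and Siglec15, a sialic acid receptor on osteoclasts that pairs with DAP12, at -1.59, Blnk, an adaptor, at -0.86 and the phospholipase Plcg1 at -0.48. Without DMSO replicate 2 the calls of Traf1 (0.71), Src (0.61), Grb2 (-0.45), Syk (0.48), Plcg1 (-0.45) and Siglec15 (-1.61) were lost. Src was also lost without the first library of DMSO (0.50) or of SKI-II (0.48) or the third of SKI-II (0.68), Syk without the first of DMSO (0.50) or of SKI-II (0.34), Plcg1 without the second of SKI-II (-0.43), and Grb2 without the third of DMSO (-0.36) or the second (-0.41) or the third (-0.35) of SKI-II.

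Calcium and calcineurin genes, which act directly before NFATc1, rose in 8 and fell in 3 of 17 cases. The store-operated channel gene Orai1 (1.02) and the IP3 receptor Itpr2 (0.95) were higher, while the IP3 receptor Itpr1 (-0.91) and the calcineurin catalytic subunit Ppp3cb (-0.70) were lower. Of 18 transcription factors that promote osteoclasts, 7 rose and 4 fell. Myc rose from 8.60 ± 1.31 to 82.2 ± 46.6 normalized counts (3.24) and the AP-1 member Fosl1 from 111 ± 36.9 to 588 ± 227 (2.40), and Ppargc1b (-0.97) and Relb (-0.81) fell. Relb was not called without DMSO replicate 3 (-0.56) or without replicate 1 (-0.87) or 2 (-0.61) of SKI-II. PU.1 (Spi1, -0.11) and Mitf (-0.21) did not pass the test.

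Among 11 tested repressors of osteoclast differentiation, 4 rose and 1 fell. Id3, an inhibitor of helix-loop-helix factors, had 9.71, 11.4 and 14.9 normalized counts in DMSO against 217, 231 and 35.8 in SKI-II (3.73), and Id1 had 6.80, 17.7 and 14.9 against 66.0, 117 and 10.6 (2.30). SKI-II replicate 3 was the lowest SKI-II library for both, and for Id1 it lay inside the DMSO range. Id1 was not called by limma-voom (1.73) or when any library but SKI-II replicate 3 was left out (1.53 to 2.55). The transcriptional repressor Zbtb7a rose (0.58) and was not called without DMSO replicate 2 (0.50). Tnfaip3, the NF-κB inhibitor A20, fell (-1.01), but was not called without replicate 2 (-1.05) or 3 (-0.69) of DMSO or replicate 2 of SKI-II (-0.77).

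The effector genes around the set were mixed as well. Of 13 fusion genes besides Dcstamp and Ocstamp, 4 rose and 2 fell, with Cd47 (0.58) and its receptor Sirpa (0.46) higher and the tetraspanin Cd9 (-0.79) and Itgb1 (-0.46) lower. Of 19 attachment and podosome genes, 2 rose and 5 fell. The β2 integrin Itgb2 fell from 8296 ± 513 to 1424 ± 241 normalized counts (-2.54), the largest fitted fall among the tested genes of the 10 lists, and Rac2 fell (-0.53), while Wdfy3 (0.64) and Pxn (0.40) rose. Itgb3, the β3 integrin that typifies osteoclasts, had 79.6, 129 and 294 in DMSO and 55.9, 76.3 and 139 in SKI-II, and did not pass the test (-0.88). Calls were lost without DMSO replicate 2 for Cd47 (0.51), Sirpa (0.42), Pxn (0.40) and Rac2 (-0.57), without SKI-II replicate 2 for Sirpa (0.47), Pxn (0.38) and Rac2 (-0.47), without SKI-II replicate 1 for Sirpa (0.38), Wdfy3 (0.46) and Rac2 (-0.43), and without DMSO replicate 3 for Rac2 (-0.38).

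Atp6v0d2 belongs with the acid secretion genes. Of 15 tested genes of this list, 2 rose and 1 fell. Slc4a2, the bicarbonate exchanger that balances proton export, rose from 725 ± 221 to 1799 ± 706 normalized counts (1.31) and the V-ATPase subunit Atp6v0a1 rose by 0.72, which was 0.67 and not called without DMSO replicate 2. Plekhm1, needed for lysosome secretion, fell (-0.55). Slc9b2, a sodium and proton exchanger of osteoclasts, was too low for the test, with raw counts of 21, 15 and 3 in DMSO and of 1, 0 and 1 in SKI-II. Of 7 other tested proteases, secreted and coupling factors, none rose and 3 fell. Timp2, an inhibitor of metalloproteinases, fell from 198 ± 19.1 to 44.3 ± 6.61 (-2.15), and Cst3, cystatin C, which inhibits cathepsins including cathepsin K, fell from 16176 ± 1168 to 4728 ± 343 (-1.77). Sema4d, a semaphorin that osteoclasts use to restrain osteoblasts, fell from 4017 ± 317 to 2052 ± 87.3 (-0.97).

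**Figure D5:**
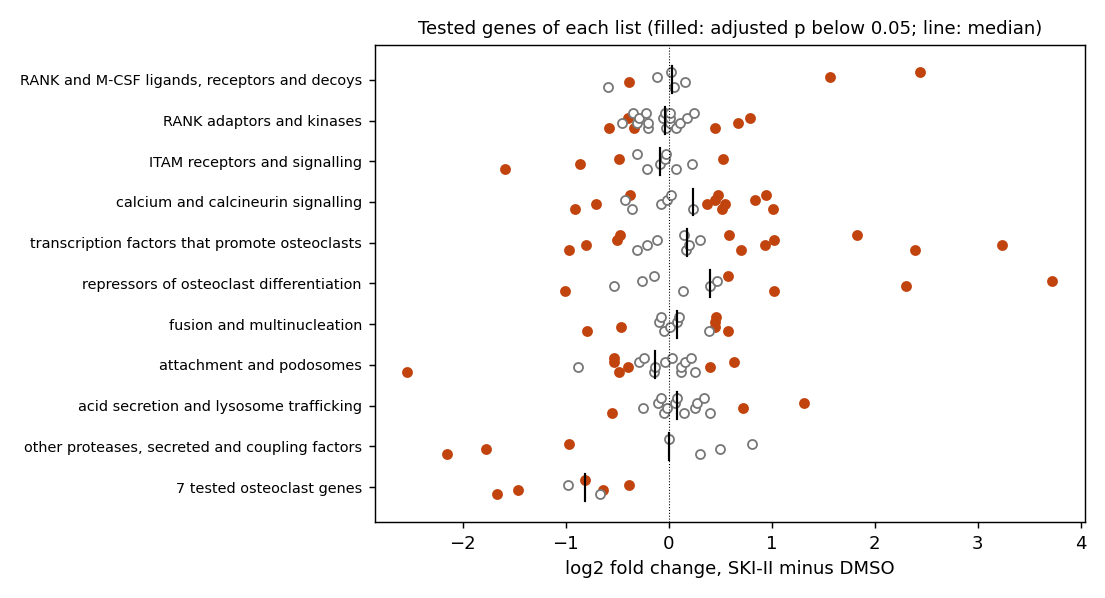
Log2 fold change of SKI-II minus DMSO (x axis) of the tested genes of the 10 related lists and of the 7 tested osteoclast genes (rows), with filled points for an edgeR adjusted p below 0.05 and a vertical line for each median. The 7 osteoclast genes lie to the left of 0 around a median of -0.81, while the other lists have points on both sides.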

How the data were processed

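RNA from RAW264.7 cells was sequenced as poly(A)-selected libraries. Per the submitters' processing notes, reads were trimmed with Trimmomatic 0.36, mapped with STAR 2.5.2b and counted with featureCounts of Subread 1.5.2. The authors deposited raw counts of reads per Ensembl gene for each library, without normalization, and compared groups with DESeq2. The genome build, annotation and strand setting were not given in the sources used here, and reads from antisense genes cannot be told apart. Gene names and exon lengths came from GENCODE M21 (GRCm38), which named 49056 of 49315 identifiers. Library totals were 12495957 to 20050677 counts.

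Groups came from the sample labels. The test was edgeR 4.0.16 (R 4.3.3) with TMM scaling, its default expression filter (minimum count 10, minimum total 15), the quasi-likelihood F test and Benjamini-Hochberg adjustment over 12274 genes. Normalized counts are on the scale of the mean effective library of 16042438. Genes with few counts were compared by summed counts with exact 95% intervals. Replicate libraries differed beyond sampling noise, so each counted once. The programs were checked on simulated counts. Alternatives were DESeq2 1.42.0, limma-voom (limma 3.58.1), RLE scaling, library size alone, no filter, a minimum of 10 counts per library, each library left out, a replicate block and, for levels per length, the longest transcript. Leaving out both libraries numbered 3 was added after seeing the data. The osteoclast genes, gene lists and tests were chosen with earlier results of these data known. Named in each related list are, among the called genes, the top 2 and the bottom 2 by log2 fold change (fewer where fewer passed), and Tnfsf11 and Tnfrsf11b. Other genes of the lists, such as Csf1r, Spi1, Mitf, Itgb3, Sphk1, Il1r1, Slc9b2 and Atp6v0d1, were chosen after their values were seen.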

Additional observations from a re-analysis of the deposited data

How the results depend on the processing

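The number of osteoclast genes called lower was 5 and stayed at 5 with DESeq2, limma-voom, RLE scaling, library size alone and a minimum of 10 counts per library. It was 6 with no filter and ranged from 3 to 7 when 1 library was left out, and none was called higher under any alternative run. With no filter Tnfrsf11a was not called and Dcstamp (edgeR adjusted p = 0.00457) and Mmp9 (0.0057) were. With the replicate block, 6 osteoclast genes were called lower, Mmp9 being added (log2 fold change -1.05, edgeR adjusted p = 0.0141). Over all tested genes the replicate block gave 2765 higher and 2819 lower, and in the related lists 38 and 33. The numbers were not taken as pairing the libraries, because the deviations of same-numbered libraries from their group means correlated with r = 0.246, 0.0099 and 0.458 for numbers 1, 2 and 3, and SKI-II replicate 2 correlated best with DMSO replicate 1 (0.296). With 1 library left out, all tested genes gave 1507 to 2227 higher and 1766 to 2387 lower, and the related lists 16 to 31 higher and 14 to 25 lower, the lowest values being those without DMSO replicate 2. No fitted log2 fold change of the 7 tested osteoclast genes or of the 37 related genes named by rule reversed, and 46 of 514 values of the named related genes were no longer past the threshold, with 19 of the 37 called throughout. The count ratio of Oscar, which the filter kept out of the main test, went from 0.893 to 1.29 without DMSO replicate 2. Besides the libraries named above, Tgfbr2 lost its call with no filter (-0.38), and Grb2 (-0.31), Itgb1 (-0.34) and Tnfaip3 (-0.75) lost theirs without both libraries numbered 3. The cause of these changes was not tested.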
